A study of Homo sapiens with 8 samples.

Results

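The genes described here are 10 listed genes of the lung epithelial lineage: the transcription factors NKX2-1, FOXA1, FOXA2, SOX2, TP63, CEBPA and KLF5, the NKX2-1 neighbour SFTA3, and the alveolar genes SFTPB and NAPSA. They were chosen by name, with earlier results of these data known, and they are 10 of 20038 genes examined. ATAC-seq, in which a transposase inserts adapters into open chromatin, had been run on H1975 and HCC44, both established human lung adenocarcinoma lines. The labels give a treatment of 96 h, either with ACBI1 at a labelled dose of 1 mM or with its solvent DMSO, and 2 replicates in each of the 4 groups. The dose is high for a degrader, and its unit could not be checked here. The genotype of both lines is labelled WT, and ACBI1 is a degrader of SMARCA2, SMARCA4 and PBRM1, which are subunits of the SWI/SNF chromatin remodelling complexes. The labels do not say that replicates were separate cultures, so the spread between them may be technical, and each line stands for itself only.

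For each sample the authors deposited a list of called peaks, and a peak was assigned to a gene when it overlapped the gene body or the 50 kb on either side. The lists held 43525 and 41027 peaks for H1975 with DMSO, 27682 and 22133 for H1975 with ACBI1, 50347 and 49945 for HCC44 with DMSO, and 26313 and 24862 for HCC44 with ACBI1. The number of reads behind a list is unknown, and a missing peak is not a measurement of closed chromatin. Merged over the 8 lists, the windows of the 10 genes held 71 regions of 69131. NKX2-1 and SFTA3 lie so close together that their windows held the same peaks, so they count as 2 genes but 1 set of peaks.

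NKX2-1 is the transcription factor that sets lung identity in the foregut and keeps alveolar cells differentiated, and it is a standard marker of lung adenocarcinoma. FOXA1 and FOXA2 are pioneer factors that open closed chromatin and act with NKX2-1 at surfactant genes, while CEBPA and KLF5 regulate alveolar maturation and epithelial growth. SOX2 and TP63 mark the proximal airway and its basal cells and are used as squamous lineage factors in lung tumours. SFTPB encodes surfactant protein B and NAPSA encodes napsin A, the aspartic protease that processes it, both made by alveolar type 2 cells.

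The promoters below are shown because peaks at these starts set the lines apart or, for SFTPB, because no sample had a peak there. Each is the 250 bases before a start in the RefSeq promoter table, build GRCh38.p14, read 5′ to 3′ in the direction of the gene. Capitals mark matches on either strand to short motifs: forkhead TGTTTAC or TATTTAC, NKX2-1 CAAGTG or CTCAAG, AP-1 TGANTCA, C/EBP TTNCNNAA, TEAD GGAATG, KLF GGGCGGGG or GGGTGGGG, and SOX ATTGTT. The table held entries for 9 of the 10 genes; FOXA2 had none.
NKX2-1, outer start, chr14:36520233-36520482, minus strand: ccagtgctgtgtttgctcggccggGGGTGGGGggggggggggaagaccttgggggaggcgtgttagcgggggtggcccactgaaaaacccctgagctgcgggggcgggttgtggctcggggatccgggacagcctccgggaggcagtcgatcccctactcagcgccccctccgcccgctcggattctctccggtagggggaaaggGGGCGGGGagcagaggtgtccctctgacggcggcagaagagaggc
NKX2-1 and SFTA3, inner start, chr14:36519557-36519806, minus strand: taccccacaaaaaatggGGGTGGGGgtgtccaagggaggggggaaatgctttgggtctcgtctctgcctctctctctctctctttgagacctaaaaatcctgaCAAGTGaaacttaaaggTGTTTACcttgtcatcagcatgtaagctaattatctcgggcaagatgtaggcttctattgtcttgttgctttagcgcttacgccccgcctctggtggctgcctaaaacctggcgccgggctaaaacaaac
SOX2, chr3:181711675-181711924, plus strand: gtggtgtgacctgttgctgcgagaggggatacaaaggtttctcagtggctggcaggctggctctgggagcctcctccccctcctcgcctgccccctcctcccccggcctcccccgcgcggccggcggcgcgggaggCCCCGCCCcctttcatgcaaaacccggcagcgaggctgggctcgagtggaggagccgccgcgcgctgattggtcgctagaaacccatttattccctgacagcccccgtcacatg
SFTPB, outer start, chr2:85668742-85668991, minus strand: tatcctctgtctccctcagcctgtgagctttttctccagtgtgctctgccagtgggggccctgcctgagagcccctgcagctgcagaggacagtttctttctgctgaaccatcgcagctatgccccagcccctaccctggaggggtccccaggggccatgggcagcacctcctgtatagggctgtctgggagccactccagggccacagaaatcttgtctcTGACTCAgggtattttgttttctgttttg

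In the NKX2-1 outer window, which was 70.8% G and C, the capitals are KLF matches at 226 and 45 bases before the start. The inner window, at 49.6% G and C, held a forkhead match at 130 bases, an NKX2-1 match at 147 bases and a KLF match at 233 bases before the start. SOX2 had a KLF match at 114 bases and SFTPB an AP-1 match at 29 bases before the start. Of the 35116 promoter windows of the same length in the table, 5.27% held a forkhead match, 18.3% an NKX2-1 match, 28.7% a KLF match and 6.57% an AP-1 match, and 33.2%, 11.9% and 8.98% held C/EBP, TEAD and SOX matches. A match describes letters and is not a binding site. The outer NKX2-1 window was overlapped by a peak in all 4 H1975 samples and in HCC44 DMSO replicate 2, and the inner one in both H1975 DMSO samples and H1975 ACBI1 replicate 1. The SOX2 window was overlapped in the 4 H1975 samples, and the SFTPB window in none of the 8.

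The 2 lines were set apart at NKX2-1, SOX2 and TP63, which had more peaks in H1975, and at FOXA1, which had more in HCC44. With DMSO, 5 of the 10 genes had fewer peaks in both HCC44 samples than in both H1975 samples (NKX2-1, SFTA3, SOX2, TP63 and NAPSA), against 15.4% of all genes. Another 3 (FOXA1, FOXA2 and KLF5) had more, against 33.3% of all genes. In the main setting, CEBPA and SFTPB overlapped between the lines. The median difference, HCC44 minus H1975, was −1.25 peaks over the 10 genes and 0 over all genes. With ACBI1 the same 5 genes had fewer peaks in HCC44 (background 14.8%), and FOXA1 alone had more (background 16.1%). The comparisons with DMSO and with ACBI1 share no sample. For TP63 and NAPSA the DMSO samples of the lines overlapped or tied under 3 of the 9 alternative settings each. These were windows of 20 or 100 kb and covered length for TP63. For NAPSA they were 100 kb and equal numbers of peaks by −log10 q or by fold. FOXA2 overlapped at a minimum −log10 q of 20, tied with equal numbers by fold and turned with equal numbers by −log10 q. KLF5 tied at a minimum fold of 5 and overlapped with equal numbers by fold. SFTPB had more in HCC44 at 20 and 100 kb, and fewer at the q and fold minimums. CEBPA had more in HCC44 at 100 kb, with equal numbers by fold and in covered length. With ACBI1 the lines overlapped or tied for NAPSA under 4 of the 9, for NKX2-1, SFTA3, TP63 and FOXA1 under 2 each, and for SOX2 under 1; FOXA1 had no peak in any ACBI1 sample at a fold of at least 5.

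**Figure D1:**
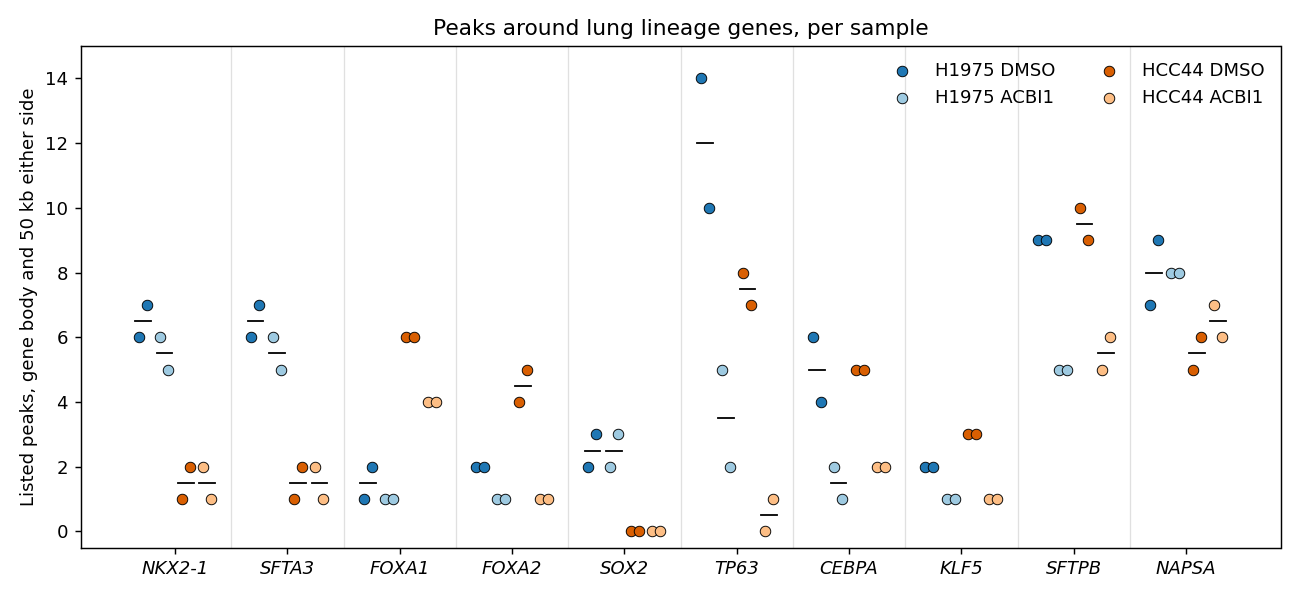
Number of listed peaks (vertical axis) in the gene body and 50 kb either side of each of the 10 genes (horizontal axis); each point is a sample, coloured by line and treatment, and the bars are means of 2 replicates. NKX2-1 and SFTA3 lie at 5 to 7 peaks in H1975 and at 1 or 2 in HCC44, while FOXA1 lies at 1 or 2 in H1975 and at 4 to 6 in HCC44.

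NKX2-1 lies at chr14:36516397-36520232 and SFTA3, annotated as a long noncoding RNA, at chr14:36473288-36519556. Their shared window held 6 and 7 peaks in the H1975 DMSO samples, 6 and 5 with ACBI1, 1 and 2 in the HCC44 DMSO samples, and 2 and 1 with ACBI1. All 4 H1975 samples lay above all 4 HCC44 samples. When lines were permuted within treatment, the two-sided exact permutation p was 0.0556, the smallest that 36 arrangements allow, and 0.309 after Benjamini-Hochberg adjustment over 20038 genes; 18% of genes reached that smallest p. The direction was the same under all 9 alternative settings with DMSO. Peaks covered 6491 and 5741 bp of the NKX2-1 window in H1975 with DMSO and 501 and 1123 bp in HCC44 with DMSO.

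At the NKX2-1 start, chr14:36517445-36520951, H1975 peaks were 3348 and 2348 bp wide with DMSO and 3393 and 765 bp with ACBI1. They ranked at 34.6, 31.5, 43.9 and 51.4, where rank is the percentile of the authors' −log10 q within a list and 100 is the strongest peak. HCC44 had a peak there only in DMSO replicate 2, 645 bp wide and at rank 12.6. Among 15844 genes with a listed start, 2.59% had a start peak in both H1975 DMSO samples and neither HCC44 DMSO sample, a pattern that NKX2-1 just misses through that narrow peak. A second region, chr14:36524505-36525939, 5 kb before the NKX2-1 start and over the uncharacterised gene LOC105370453, had a peak in all 8 samples. It ranked at 65.9 and 47.5 in H1975 with DMSO and at 7.8 and 21.1 in HCC44 with DMSO. Its ranks with ACBI1 were 72.0 and 58.3 for H1975, and for HCC44 they were 54.3 and 37.6.

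The strongest DMSO peak of this locus in H1975 was not at a start. It lay inside SFTA3, 41.2 kb from the NKX2-1 start, at chr14:36478780-36479261, with ranks of 82.2 and 69.4 and the authors' fold enrichments of 7.88 and 7.65. No peak was listed there in either H1975 ACBI1 sample or in any HCC44 sample. It was the highest ranked lost region of the 10 genes in H1975, where lost means listed by both DMSO samples but no ACBI1 sample. A nearer SFTA3 region, chr14:36505453-36506434, was listed in all 4 H1975 samples and in HCC44 only in ACBI1 replicate 1.

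SOX2, at chr3:181711925-181714436, had 2 and 3 peaks in the H1975 DMSO samples, 2 and 3 with ACBI1, and none in the 4 HCC44 samples. Here too the lines did not overlap, and the same exact permutation test gave p = 0.0556, adjusted 0.309. The start region, chr3:181710900-181713257, was listed in every H1975 sample, at ranks of 6.8 and 16.9 with DMSO and 18 and 5.4 with ACBI1, so these peaks stood in the lower ranks of their lists. A start peak in both H1975 samples and neither HCC44 sample occurred at 2.59% of genes with DMSO and at 2.87% with ACBI1. When the 22133 strongest peaks by −log10 q were taken from every list, no DMSO sample of either line kept a SOX2 peak. Inside SOX2-OT, the long transcript that contains SOX2, a region 27.9 kb past the start, chr3:181739685-181739930, was lost with ACBI1 in H1975 from ranks of 32.0 and 26.9. Another, 11.2 kb before the start at chr3:181700577-181700923, was the 1 gained region of the 10 genes in either line, at ranks of 20.1 and 9.5 in the ACBI1 samples.

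FOXA1 lies on the same chromosome, 1.07 Mb beyond NKX2-1, at chr14:37589552-37595249, and ran the other way. It had 1 and 2 peaks in the H1975 DMSO samples, 1 and 1 with ACBI1, 6 and 6 in the HCC44 DMSO samples, and 4 and 4 with ACBI1. The lines did not overlap (exact permutation p = 0.0556, adjusted 0.309), and the direction held under all 9 alternative settings with DMSO. With DMSO the covered length was 1971 and 2495 bp for H1975, against 8794 and 9152 bp for HCC44.

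The FOXA1 start region, chr14:37594314-37596426, had a peak in all 8 samples, so the lines were set apart by other regions. Of 5 regions that could be assigned to a line with DMSO, 4 were found in HCC44 only. In HCC44 the peaks of the start region were 1847 and 1933 bp wide with DMSO and 597 and 705 bp with ACBI1. The 250 bases before the start were overlapped in both HCC44 DMSO samples and in neither HCC44 ACBI1 sample. In H1975 they were overlapped in all samples but ACBI1 replicate 2. A region in the gene body, chr14:37591464-37592704, was retained with ACBI1, as were chr14:37597683-37600066 in the neighbouring gene TTC6 and chr14:37582934-37585494, which had ranks of 63.5 and 51.8 in HCC44 with DMSO. H1975 had a peak in the last of these in DMSO replicate 2, at rank 0.6. Ranked by fold in HCC44 with DMSO, the gene body, TTC6 and last regions stood at only 0.3 and 0.2, 0.3 and 0.1, and 2.5 and 1.2. The start stood at 0.0 in both HCC44 DMSO samples, with folds of 2.01 and 1.81. The outermost HCC44 regions, in MIPOL1 at 48.4 kb (chr14:37546464-37547136, ranks 80.1 and 69.7) and in TTC6 at 28.7 kb (chr14:37623648-37624223, ranks 65.4 and 72.3), were both lost with ACBI1. By fold these 2 regions ranked at 88.5 and 67.0, and at 91.6 and 91.8.

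FOXA2, at chr20:22580998-22585490, had 2 and 2 peaks in the H1975 DMSO samples and 4 and 5 in the HCC44 DMSO samples. With ACBI1 every sample of both lines had 1. The peak that remained was not the same: H1975 retained chr20:22583152-22585497 over the gene (ranks 54.8 and 54.9 with DMSO, 67.3 and 57.7 with ACBI1), and HCC44 retained chr20:22586093-22587163 just outside it (10.4 and 5.4, then 31.0 and 34.3). The HCC44 DMSO samples also listed the gene region at ranks of 5.7 and 9.0, and neither HCC44 ACBI1 sample did. With equal numbers of peaks by −log10 q the DMSO direction turned, to 2 and 2 in H1975 and 0 and 0 in HCC44. A distal region, chr20:22617112-22617496, was lost in both lines. Its DMSO ranks were 55.1 and 47.9 in H1975, and in HCC44 they were 54.9 and 52.2.

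**Figure D2:**
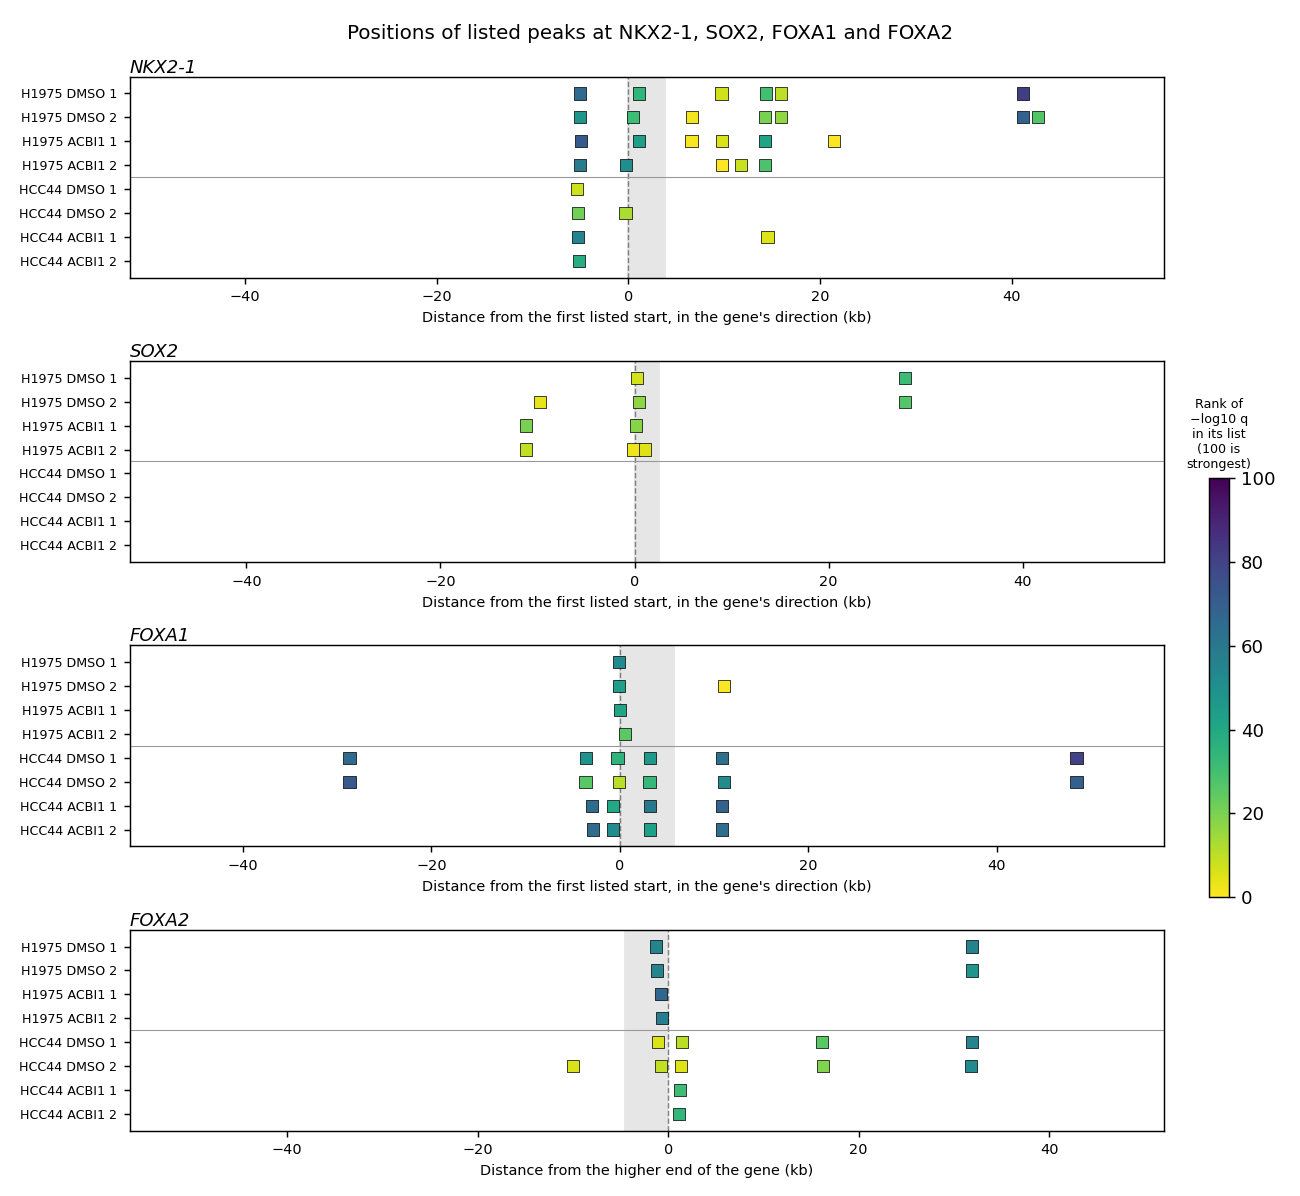
Positions of listed peaks (squares) around NKX2-1, SOX2, FOXA1 and FOXA2 in each of the 8 samples (rows), as distance in kb from the first listed start in the direction of the gene, or from the higher end of FOXA2, coloured by rank within the list. The grey band is the gene body; the rows of HCC44 are empty at SOX2, and most FOXA1 squares away from the start are in HCC44.

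**Figure D3:**
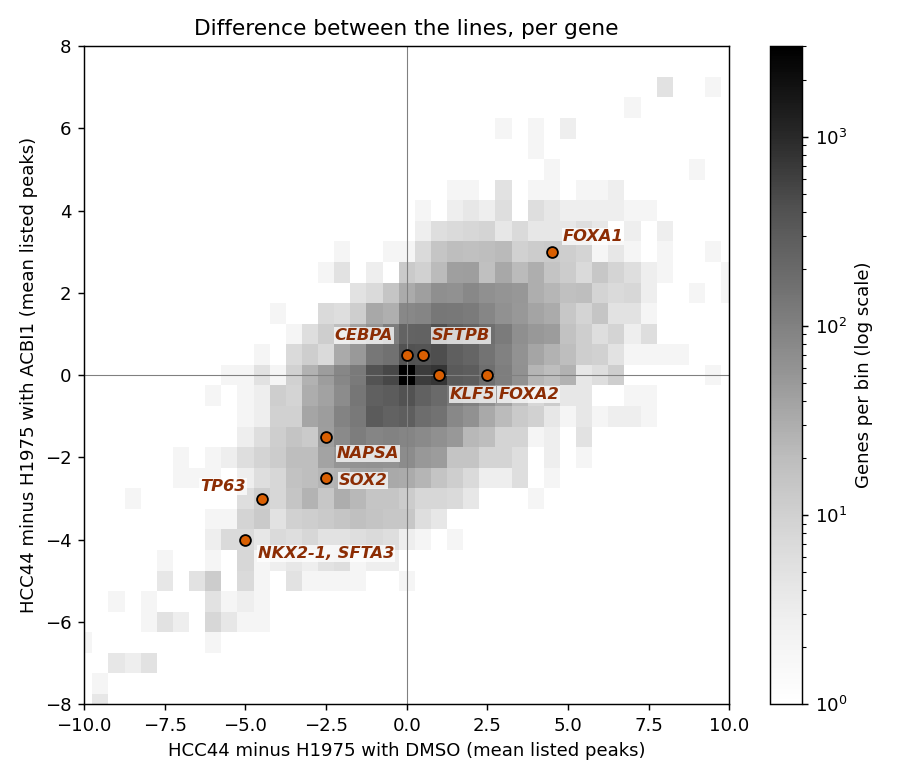
Mean listed peaks in HCC44 minus H1975 with DMSO (horizontal axis) against the same difference with ACBI1 (vertical axis) for all genes (grey bins, log colour scale) and the 10 genes (orange points); 81 of 20038 genes lie outside the axes. NKX2-1, SFTA3, TP63, SOX2 and NAPSA lie at lower left and FOXA1 at upper right.

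With ACBI1, fewer peaks were listed around most of these genes, as around many genes. In the main setting the NKX2-1, SOX2 and NAPSA windows held about as many as with DMSO. In H1975, 5 of the 10 genes (FOXA2, TP63, CEBPA, KLF5 and SFTPB) had fewer peaks in each ACBI1 sample than in either DMSO sample, against 43.3% of all genes, and none had more, against 1.45%. In HCC44 these 5 and FOXA1 had fewer, against 55.1%, and none had more, against 1.79%. The shares are near the background and are not a result about these genes. The median change was −1 peak in H1975 and −2 in HCC44, against −1 in each line over all genes. Treatments permuted within lines gave p = 0.0556 for the 5 shared genes by the exact permutation test, two-sided, 0.163 after adjustment over 20038 genes, and 34.1% of all genes reached it. Without H1975 DMSO replicate 1, the H1975 count was 9 of 10, SOX2 being the exception. With equal numbers of peaks from every list, ranked by −log10 q, the genes with fewer were FOXA2, TP63 and CEBPA in H1975 and TP63, CEBPA and KLF5 in HCC44. In that ranking FOXA1 and FOXA2 turned to more with ACBI1 in HCC44, from 3 and 2 to 4 and 4 and from 0 and 0 to 1 and 1. FOXA1 did not differ there with a window of 20 kb, at 4 in every sample. Ranked by fold, the genes with fewer were TP63 in H1975 and FOXA1, TP63 and KLF5 in HCC44. With equal numbers by −log10 q, NKX2-1, SOX2 and NAPSA had more with ACBI1 in H1975. They went from 2 and 2 to 3 and 5, from 0 and 0 to 1 and 3, and from 3 and 3 to 6 and 8. NKX2-1 and NAPSA also had more in HCC44, from 0 and 0 to 1 and 1 and from 3 and 3 to 5 and 5. In H1975, NKX2-1 had fewer at a minimum −log10 q of 20, from 4 and 6 to 3 and 3. NAPSA had fewer there at 20 kb and at a minimum fold of 5, each from 5 and 5 to 4 and 4.

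Summed over the windows, with each peak once, the genes held 48.5 ± 0.707 peaks (SD, n = 2) in H1975 with DMSO. With ACBI1 they held 29 ± 2.83 (SD, n = 2), so the log2 change was −0.74 (SD between replicates 0.10), and that of whole lists was −0.76. In HCC44 the sum was 42.5 ± 0.707 (SD, n = 2) with DMSO and 22 in each ACBI1 sample, a log2 change of −0.95 where whole lists gave −0.97. Member peaks were 0.113% and 0.117% of the H1975 DMSO lists and 0.112% and 0.122% of the ACBI1 lists. In HCC44 they were 0.0834% and 0.0861% with DMSO and 0.0836% and 0.0885% with ACBI1. With the 22133 strongest peaks by −log10 q taken from every list, the summed log2 change was 0.19 in H1975 and 0.08 in HCC44, so its direction turned in both lines.

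TP63, a window of 400.531 kb around chr3:189596746-189897276, had 14 and 10 peaks in H1975 with DMSO, 5 and 2 with ACBI1, 8 and 7 in HCC44 with DMSO, and 0 and 1 with ACBI1. Treated and control samples did not overlap in either line, also under all 9 alternative settings, equal numbers of peaks included. Peaks covered 5269 and 3911 bp and then 2398 and 1163 bp in H1975, and 4145 and 4177 bp and then 0 and 370 bp in HCC44. The table lists 1 start, at chr3:189631389, and no sample had a peak within 1 kb of it; 31.6% of genes had no start peak in any sample. TP63 peaks therefore lay in the gene body and on both sides of it, and a start that the table does not list would not be counted.

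The strongest TP63 region lay past the far end of the gene, 306.4 kb from the listed start, at chr3:189937366-189938194. It ranked at 99.2 and 98.6 in H1975 with DMSO, 90.4 and 82.5 with ACBI1, and 99.1 and 97.4 in HCC44 with DMSO. With ACBI1 in HCC44 it was listed in replicate 2 only, at rank 8.1 and 370 bp wide. The highest ranked lost region of the 10 genes in HCC44 was also near TP63: chr3:189563789-189564370, 67.3 kb before the listed start, at ranks of 94.2 and 92.5 with DMSO. H1975 kept it in all 4 samples, at 72.5 and 70.7 with DMSO and 54.4 and 34.9 with ACBI1. In the gene body, chr3:189710680-189711198 was lost in both lines, from ranks of 81.1 and 65.6 in H1975 and 84.7 and 82.4 in HCC44. Of 5 TP63 regions in both HCC44 DMSO samples, 4 were lost and none was retained; in H1975, 5 of 10 were lost and 2 retained.

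CEBPA, at chr19:33299934-33302534, had 6 and 4 peaks in H1975 with DMSO, 2 and 1 with ACBI1, 5 and 5 in HCC44 with DMSO, and 2 and 2 with ACBI1. Its start region, chr19:33302164-33303233, was listed in all 8 samples, at ranks of 62.7, 60.2, 69.9 and 61.4 in H1975 and 78.4, 89.2, 77.6 and 76.7 in HCC44. A region 9.1 kb past the start, chr19:33292715-33294249, ranked at 84.7 and 79.5 in HCC44 with DMSO and 11.6 and 4.9 with ACBI1, and at 27.5 and 25 in H1975 with DMSO. In H1975 with ACBI1 it was listed in replicate 1 only, at rank 3.9. The start was listed in every sample and the downstream region in all but H1975 ACBI1 replicate 2.

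KLF5, at chr13:73054976-73077538, had 2 and 2 peaks in H1975 with DMSO, 3 and 3 in HCC44 with DMSO, and 1 in every ACBI1 sample. The peak that stayed lay at the second listed start, chr13:73058558-73061059, with ranks between 58.5 and 87.2 over the 8 samples. Its HCC44 DMSO peaks were 2502 and 2497 bp wide, against 789 and 1032 bp with ACBI1, while in H1975 the 4 widths ran from 961 to 1038 bp. Past the gene, chr13:73090345-73090822 was lost in both lines, and chr13:73096259-73096950, listed in HCC44 only, was lost there. With equal numbers of peaks, by either measure, KLF5 no longer had fewer in the H1975 ACBI1 samples.

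The 2 alveolar genes differed from each other. SFTPB, at chr2:85657307-85668741, had 9 and 9 peaks in H1975 with DMSO, 5 and 5 with ACBI1, 10 and 9 in HCC44 with DMSO, and 5 and 6 with ACBI1. No sample had a peak within 1 kb of either listed SFTPB start. The 1 region inside the gene body that both DMSO samples of each line held, chr2:85662478-85663302, was lost in both lines, from ranks of 63.1 and 57.9 in H1975, while HCC44 had it at 33.8 and 29.6. The strongest peaks of the window belonged to a neighbour: chr2:85615885-85616739, at a start of the splicing gene USP39, was listed in all 8 samples at ranks of 65.8 to 87.2. With equal numbers of peaks by −log10 q, SFTPB turned to more peaks with ACBI1, from 3 and 4 to 5 and 5 in H1975 and from 3 and 1 to 5 and 5 in HCC44. With equal numbers by fold it also turned, from 0 and 1 to 4 and 5 in H1975 and from 1 and 1 to 4 and 6 in HCC44.

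NAPSA, at chr19:50358477-50369302, had 7 and 9 peaks in H1975 with DMSO, 8 and 8 with ACBI1, 5 and 6 in HCC44 with DMSO, and 7 and 6 with ACBI1, so treated and control samples overlapped in both lines. Its start region, chr19:50368477-50369428, was listed in all 8 samples, at ranks of 47.9 and 40.6 in H1975 and 76.8 and 77.1 in HCC44 with DMSO. The lines were again set apart away from the start. Inside NAPSA, chr19:50363060-50363980 was listed in the H1975 DMSO samples only, at ranks of 41.6 and 29.5. The starts of the neighbours NR1H2, a liver X receptor, and POLD1, a DNA polymerase subunit, held the highest ranked peaks of the window, in all 8 samples.

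**Figure D4:**
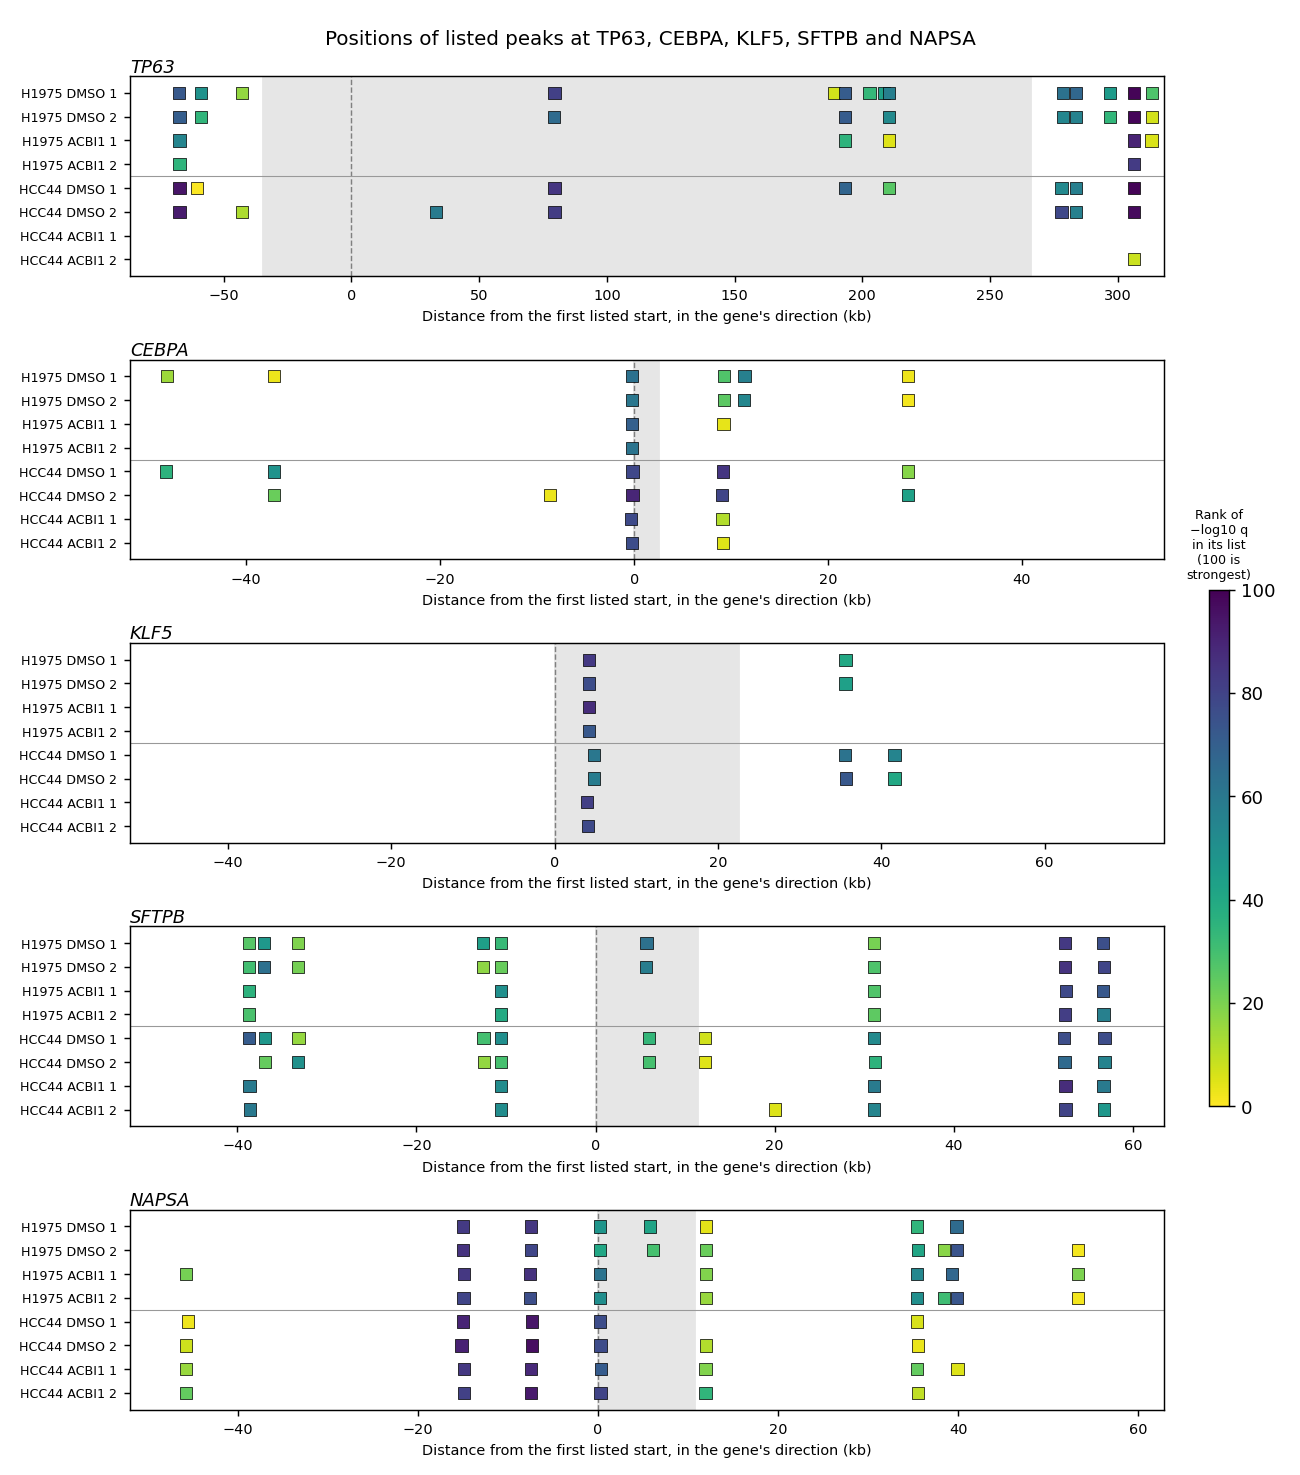
Positions of listed peaks (squares) around TP63, CEBPA, KLF5, SFTPB and NAPSA in each of the 8 samples (rows), as distance in kb from the first listed start in the direction of the gene, coloured by rank within the list. The start squares of CEBPA, KLF5 and NAPSA are present in all 8 rows, while 1 square is left at TP63 in the HCC44 ACBI1 samples.

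Across the genes, the regions lost with ACBI1 lay away from the listed starts of protein-coding genes and SFTA3. An SFTPB region lost in both lines, chr2:85680888-85681789, lay at a listed start of the uncharacterised gene LOC105374842. FOXA2 has no listed start, and its region lost in HCC44 reaches an end of the gene. FOXA1, FOXA2, CEBPA, KLF5 and NAPSA had a peak within 1 kb of a start in all 8 samples, as did 56.7% of genes. For FOXA2 either gene end was taken. Among the genes with a listed start, none had a start peak in both samples of one treatment and neither of the other. Over all genes a start peak was listed with DMSO only at 1.14% in H1975 and 2.46% in HCC44, and with ACBI1 only at 0.151% and 0.208%. None of the 10 genes had a start peak in both HCC44 samples and neither H1975 sample, against 3.08% with DMSO and 2.05% with ACBI1. The next counts use listed starts of protein-coding genes and SFTA3, so FOXA2 regions, the 1 lost in HCC44 included, are among the others. The lost region at LOC105374842 is among them too. Of regions at a coding start in both DMSO samples, 0 of 10 were lost in H1975 (exact Clopper-Pearson 95% interval up to 30.8%) and 0 of 8 in HCC44 (up to 36.9%), against 2.83% and 5.32% of all such regions. Of the others, 17 of 32 (53.1%) were lost in H1975 and 18 of 29 (62.1%) in HCC44, against 48.4% and 61% over the genome. Altogether 17 of 42 member regions were lost in H1975 (40.5%, interval 25.6% to 56.7%) and 18 of 37 in HCC44 (48.6%, 31.9% to 65.6%). The shares over all regions, 37.2% and 49.2%, lie within these intervals, which cover counting error only.

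**Figure D5:**
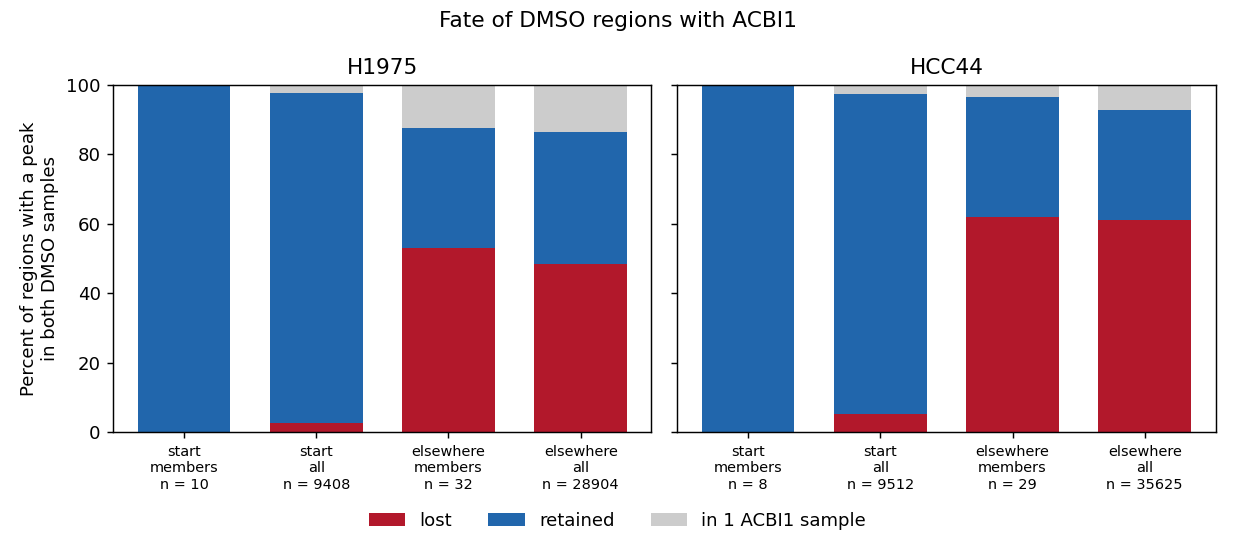
Percent of the regions listed by both DMSO samples (vertical axis) that were lost, retained or listed in 1 ACBI1 sample, at coding starts and elsewhere, for the 10 genes and for all regions, in each line; n is the number of regions. No region of the 10 genes at a listed start of a protein-coding gene or SFTA3 was lost. Elsewhere the bars of the 10 genes lie close to those of all regions. FOXA2 has no listed start, so its gene region lost in HCC44 is counted elsewhere, as is a lost SFTPB region at the start of LOC105374842.

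Of the 46 member regions that could be assigned with DMSO, 26 were found in both lines (56.5%), 11 in H1975 only (23.9%) and 9 in HCC44 only (19.6%). Over all 49093 such regions the shares were 59.2%, 13.9% and 26.8%. Of the 26 shared regions, 10 (38.5%) were lost in both lines, against 25.1% of all shared regions: 4 at SFTPB, 3 at TP63 and 1 each at FOXA2, CEBPA and KLF5. Another 12 (46.2%) were retained in both, against 51.8%. Retained in H1975 and lost in HCC44 were 2 (7.69%, at FOXA2 and TP63), near the 6.27% of all shared regions. None went the other way, against 1.78%.

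The same counts were made for other lung gene lists, to be read against the shares of all genes: 43.3% had fewer peaks with ACBI1 in H1975 and 55.1% in HCC44, with a median of −1 in each line, and 33.3% had more in HCC44 with DMSO. Of 10 alveolar type 2 genes, 6 had fewer peaks with ACBI1 in H1975 and 6 in HCC44, close to those shares, with a median change of −1.75 in each line. SFTPC, which encodes surfactant protein C, had 11 and 10 peaks in H1975 with DMSO and 4 and 3 with ACBI1, and 10 and 11, then 6 and 5, in HCC44. SFTPA2, a surfactant protein A gene with a near-identical copy, was the 1 gene of the list with more: 0 and 0 with DMSO and 1 and 1 with ACBI1 in both lines. Between the lines with DMSO, 4 of the 10 type 2 genes had more peaks in HCC44 and 1 had fewer. The shares of all genes were 33.3% and 15.4%. With ACBI1, 4 had more and none fewer, against 16.1% and 14.8%. Of 8 alveolar type 1 genes, 2 had fewer with ACBI1 in H1975 and 6 in HCC44. With DMSO, 4 had more in HCC44 than in H1975, against 33.3% of all genes, and EMP2 had fewer. It had 9 and 8 peaks in H1975 and 4 and 3 in HCC44. With ACBI1, 3 had more in HCC44 and 3 fewer. PDPN, the membrane glycoprotein podoplanin, had 9 and 9 peaks in HCC44 with DMSO, 2 and 2 with ACBI1 and none in H1975.

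Among 10 airway genes, 4 had fewer peaks with ACBI1 in H1975 and 5 in HCC44, near the 43.3% and 55.1% of all genes. Between the lines with DMSO, 5 had more in HCC44 and 1 fewer, against 33.3% and 15.4% of all genes. With ACBI1, 3 had more and 1 fewer, against 16.1% and 14.8%. KRT5, the basal cell keratin, had 2 and 1 and then 0 and 0 in H1975, and 3 and 4 and then 1 and 1 in HCC44. Of 14 other epithelial transcription factors, 9 and 12 had fewer with ACBI1 (43.3% and 55.1% of all genes). The medians were −1.5 and −2.5 (−1 and −1 over all genes). Between the lines, 5 had more in HCC44 and 3 fewer with DMSO, and 3 more and 4 fewer with ACBI1, against the same shares. ETS2 had 13 and 14 peaks in H1975 with DMSO and 5 and 4 with ACBI1, and 10 and 10, then 1 and 2, in HCC44. GRHL2, which maintains epithelial junction genes, had 11 and 10, then 5 and 3, in H1975 and 5 and 7, then 1 and 0, in HCC44.

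As a check of the labelled cell type, EPCAM, KRT8, KRT18, KRT19 and KRT7 had a start peak in all 8 samples, and CDH1 in all but HCC44 ACBI1 replicate 1. Among genes of other cell types, the leukocyte gene PTPRC, the endothelial genes PECAM1 and CDH5 and the collagen gene COL3A1 had no start peak in any sample. COL1A1 and VIM had one in all 8, and CD3E in 3. NKX2-1, a standard marker of lung adenocarcinoma, had the start peaks given above: all 4 H1975 samples and 1 of 4 HCC44 samples.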

How the data were processed

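ATAC-seq peak lists of 8 samples were analysed. Per the submitters' processing notes, reads were handled with BWA and the build hg38; the peak caller and its filters are not given in the sources used here. The authors deposited 1 broadPeak list per sample, so replicates were not pooled. Fold enrichment (a ratio) is the authors' deposited value, p and q values were deposited as −log10 values, and the deposited score was not used. Fold and q depend on depth, so they served only to rank or filter peaks within a list.

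Gene positions and starts came from RefSeq tables (GRCh38.p14); exon and intron positions were not analysed here. Genes tested were the protein-coding genes of chromosomes 1 to 22, X and Y, and SFTA3. A start peak lies within 1 kb of a listed start. Peaks overlapping by 1 bp were merged into regions, called lost (both DMSO, neither ACBI1 sample), gained (the reverse) or retained (all 4). Samples were compared by non-overlap and by exact permutation tests, two-sided; the smallest p is 0.0556 (0.333 within 1 line), so none can pass the usual threshold.

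The 10 genes and the other lists were chosen with earlier results of these data known. All 10 are named, with the region of the highest mean rank in the DMSO samples of each line, the highest ranked lost and gained regions, and further regions chosen after their values were seen. A few genes of the other lists are not reported here. Of those lists, genes with the largest called differences are named, up to 4 each, and some were named after their values were seen. Python 3.11.15, numpy 2.4.6, pandas 2.3.3, scipy 1.17.1 and matplotlib 3.10.9 were used, and the functions were tested on simulated data.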

Additional observations from a re-analysis of the deposited data

How the results depend on the processing

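The alternatives were windows of 20 or 100 kb, a minimum −log10 q of 20, a minimum fold of 5, the 22133 strongest peaks of every list by −log10 q or by fold, peaks within 1200 bp joined, covered base pairs, a replicate block, NKX2-1 and SFTA3 as 1 locus, peaks at starts of other genes left out (both added after seeing the data), and each replicate left out. Of 114 alternative values other than left-out replicates, for 11 results, 74 stayed close, 35 moved and 5 turned; the causes were not tested.

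The summed log2 change with ACBI1 in H1975 was −0.62 at 100 kb, −0.95 at the q minimum, −1.15 at the fold minimum, −0.53 in covered base pairs and −0.86 without starts of other genes, and turned to 0.19 and 0.22 with equal numbers by q and by fold. In HCC44 it was −0.81 at 20 kb, −0.76 at 100 kb, −1 at the q minimum, −2.36 at the fold minimum, −0.93 with joined peaks, −1.04 in covered base pairs, −1.14 without starts of other genes, −0.049 with equal numbers by fold, and turned to 0.083 by q. The summed difference between the lines with DMSO, −0.19, was −0.47 and −0.60 at the q and fold minimums, −0.34 and −0.30 with equal numbers by q and by fold, −0.16 with joined peaks and −0.21 without other starts; it turned to 0.19 at 100 kb and 0.078 in covered base pairs.

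Genes with fewer peaks with ACBI1 were 3 in each line with equal numbers by q, and 1 in H1975 and 3 in HCC44 by fold. At 100 kb, 5 genes had more and 3 fewer in HCC44 with DMSO, and 3 more and 3 fewer with ACBI1. With ACBI1, genes with fewer peaks in HCC44 were 3 at 20 kb and 2 with equal numbers by fold, and the count with more was 0 at the fold minimum and 0 with equal numbers by fold. Regions lost were 57.7% and 60% in H1975 and 85.7% and 70% in HCC44 at the fold minimum and with equal numbers by fold. Of the 22 named regions, 11 were named again when ranked by fold.

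Leaving out each replicate gave summed changes of −0.85 to −0.65 for H1975, −0.97 to −0.93 for HCC44, a line difference of −0.21 to −0.17, and 40.5% to 50% and 48.6% to 53.5% of regions lost. Genes with fewer peaks with ACBI1 numbered 5 to 9 in H1975 (9 without H1975 DMSO replicate 1) and 6 to 6 in HCC44. Genes with more in HCC44 numbered 3 to 4 with DMSO and 1 to 2 with ACBI1 (2 without replicate 1 of either line's ACBI1 group), and with fewer 5 to 6 and 5 to 5.

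Same-numbered replicates correlated at 0.08 in H1975 and 0.03 in HCC44 over 20038 genes with 2 pairs each. With 2 pairs a low correlation cannot show whether same-numbered samples shared a culture or a batch. With the replicate block, the counts were 5 and 6 genes with fewer peaks with ACBI1, and 3 more and 5 fewer, then 1 more and 5 fewer, in HCC44; regions lost were 50.1% and 54.1%, and it changed no call. The depth in reads is unknown and limits every count of peaks.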

Other observations

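Lineage factors of gut and liver, as background the endoderm programmes that lie next to lung, had more peaks in HCC44 than in H1975 with DMSO at 6 of 7 genes and fewer at none, with a median difference of 1.5 peaks against 0 over all genes and 33.3% of all genes with more. CDX2, the intestinal homeobox factor, had 3 and 2 peaks in HCC44 with DMSO, 2 and 2 with ACBI1, and none in H1975. PDX1, its pancreatic neighbour, had 2 in every HCC44 sample and none in H1975; the 2 windows overlap and share peaks. Neither gene had a start peak in any sample. GATA4 had 8 and 8 peaks in HCC44 and 6 and 6 in H1975 with DMSO, and HNF4A 5 and 4 against 3 and 3. Compared with DMSO, 5 of the 7 had fewer peaks with ACBI1 in HCC44 and 2 in H1975, beside 55.1% and 43.3% of all genes. Between the lines with ACBI1, 2 of the 7, CDX2 and PDX1, had more in HCC44, beside 16.1% of all genes. None had fewer, and the median difference was 0.

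Neuroendocrine and tuft cell genes were mostly without start peaks: 5 of 7 had none in any sample, against 31.6% of genes with a listed start. POU2F3, the tuft cell factor, had no start peak but 6 and 7 peaks in H1975 with DMSO, 3 and 3 with ACBI1, 10 and 8 in HCC44 with DMSO, and 4 and 4 with ACBI1.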
